A study of Mus musculus with 6 samples.

Results

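The 4 protein-coding heart genes Gm34302, A530016L24Rik, Smco1 and Rasl10a, which are little studied or known mostly under other names, were followed across 6 mouse hearts. They were taken by name from the deposited expression table of 54532 genes, and they had been chosen because they showed some of the largest decreases after loss of Mrps5, which codes for a mitochondrial ribosomal protein of the small subunit. Their decrease is therefore a description of how they were selected, and no test of it is given. The 3 control hearts (Ctrl) came from Mrps5 fl/fl mice, in which both Mrps5 alleles carry loxP sites, and the 3 knockout hearts (cKO) from Mrps5 fl/fl; MCM mice, which carry in addition MerCreMer, a tamoxifen-inducible Cre recombinase driven by the cardiomyocyte αMHC promoter. Mice of both genotypes were given tamoxifen at 45 mg/kg per day for 5 days by intraperitoneal injection at 8 weeks of age, and the hearts were taken 12 weeks later. The control mice lacked MCM, so the effects of Cre and of the loss of Mrps5 cannot be told apart. The study's methods describe the tissue as ventricle.

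All 4 genes code for proteins that are named in the files mainly by an identifier or a domain. Gm34302 is another name of Strit1, also called DWORF. Its product is a short peptide of the sarcoplasmic reticulum membrane that raises the activity of SERCA, the pump that returns calcium to the store after each heartbeat, and it counteracts phospholamban and its relatives, the small peptides that inhibit the pump. A530016L24Rik is also called Nrac, for nutritionally regulated adipose and cardiac-enriched protein, a name taken from the tissues in which it is abundant. Smco1 codes for a single-pass membrane protein with coiled-coil domains, and no function is firmly assigned to it. Rasl10a codes for a RAS-like small GTPase, a member of the superfamily of switch proteins that cycle between a GTP-bound and a GDP-bound state.

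The 4 genes lay on different chromosomes (coordinates as in the table, which correspond to GRCm38). Gm34302 (ENSMUSG00000103476) occupied chromosome 3, 63481112 to 63483879, on the minus strand, with 3 exons that sum to 243 bases. A530016L24Rik (ENSMUSG00000043122) lay on chromosome 12, 112489448 to 112499927, on the plus strand, with 3110 exonic bases and 165 codons in its longest coding transcript. Smco1 (ENSMUSG00000046345) lay on chromosome 16, 32271468 to 32274781, on the plus strand, with 1410 bases, 3 exons and 214 codons. Rasl10a (ENSMUSG00000034209) lay on chromosome 11, 5058128 to 5060385, on the plus strand, with 1413 exonic bases and 203 codons. All 4 were shorter than the median of tested protein-coding genes, 4335 bases, and Gm34302 stood at percentile 0.035 of that distribution.

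Gm34302 is the most extreme of them in size, and its whole coding sequence is shown because it is short enough to be read in full. It runs over exons 1 and 2 (GENCODE M21, chr3:63481290-63483827, minus strand), holds 34 codons and takes up 43.2% of the transcript. The start and stop codons are in capitals:
Gm34302 coding sequence: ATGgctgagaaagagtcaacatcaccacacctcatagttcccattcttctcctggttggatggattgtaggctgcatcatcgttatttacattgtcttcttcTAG

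The 250 bases before the RefSeq transcription start are shown so that the upstream regions can be compared. They are given for the 3 members that have an entry in the RefSeq promoter table (GRCm38.p6). The common direction of the genes follows from their selection. The promoter of A530016L24Rik had no entry. Capitals mark the nuclear receptor element AGGTCA on either strand (TGACCT when read from the other strand):
Gm34302, chr3:63483907-63484156, minus strand: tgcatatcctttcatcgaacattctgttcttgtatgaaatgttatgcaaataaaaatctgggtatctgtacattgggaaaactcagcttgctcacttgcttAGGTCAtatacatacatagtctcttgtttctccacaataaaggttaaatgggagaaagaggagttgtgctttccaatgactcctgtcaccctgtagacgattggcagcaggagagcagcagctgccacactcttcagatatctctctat
Smco1, chr16:32271230-32271479, plus strand: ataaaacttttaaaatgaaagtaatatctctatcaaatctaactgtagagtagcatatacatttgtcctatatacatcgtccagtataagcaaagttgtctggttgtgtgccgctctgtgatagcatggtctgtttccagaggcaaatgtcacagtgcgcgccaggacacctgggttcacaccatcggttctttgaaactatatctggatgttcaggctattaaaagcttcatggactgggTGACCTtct
Rasl10a, chr11:5057878-5058127, plus strand: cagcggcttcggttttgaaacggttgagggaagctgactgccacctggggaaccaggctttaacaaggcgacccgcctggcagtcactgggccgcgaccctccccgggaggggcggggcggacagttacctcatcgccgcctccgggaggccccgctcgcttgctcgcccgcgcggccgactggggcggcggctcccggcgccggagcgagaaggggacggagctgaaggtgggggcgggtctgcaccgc

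The 3 upstream regions were unlike in composition. Over 300 bases (250 before and 50 after the start) the promoter of Gm34302 had 40.7% GC and 2 CpG dinucleotides, that of Smco1 44.3% and 8, and that of Rasl10a 72.3% and 36, against medians of 52.7% and 7 over all 32851 promoters. Rasl10a thus had a GC-rich promoter, with a lower GC content in 93.5% of promoters, whereas Gm34302 had a GC-poor one, with a lower content in 11.4%. Of 7 motifs searched on both strands in these 300 bases, 1 was found. AGGTCA occurred in Gm34302, with its first base at -149 from the start, and in Smco1, on the reverse strand at -9, which lies inside the first exon of the Smco1 model used in the table. The same letters occurred in 16.3% of all promoters. No match was present in the 3 windows for the other 6 motifs. These were the E-box CACGTG, which 7.15% of all promoters hold, the D-box TTATGTAA, which 0.938% hold, and the letters CCACCC that KLF factors bind, which 31.5% hold. AGATAAG, bound by a family of zinc finger factors that act in the heart, was held by 3.04%. The shared element of ATF4 and CEBP factors, TGATGNAAT, was held by 0.965%, and the core promoter element TATAAA by 13.6%. A match is only a description of letters.

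The targeted gene was read first as a check of the labels. In Ctrl hearts, replicates 1, 2 and 3 held 5.20, 6.45 and 6.34 FPKM of Mrps5 (fragments per kilobase of gene, scaled to library size), and the cKO hearts held 1.12, 1.23 and 1.31 FPKM in the same order. The cKO hearts thus held 20.4% of the control mean, with no overlap between groups (log2 fold change -1.65, SE 0.09, limma adjusted p = 0.000202, exact two-sided permutation p = 0.1, the smallest that 3 against 3 allows). Whole reads could be worked back from the FPKM values, and totals ranged from 15989322 to 24875499 reads per heart, with 20410 to 21675 genes detected. The labels give no sex, and the study states that its mice were male. Against this, cKO replicate 2 had Xist at 10.7 FPKM and 0 for the mean of 4 Y-linked genes. The other 5 hearts had Xist between 0.00329 and 0.127 FPKM and Y-linked means of 7.61 to 8.79 FPKM. Replicate 2 of the cKO group thus stands apart, and log2 fold changes of the 4 genes without it are given as well.

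Gm34302 showed the largest decrease of all 12944 genes tested on the log2(FPKM + 1) scale (place 6 with limma voom on the recovered reads). In the control hearts it was read at 27.6, 29.9 and 31.3 FPKM (replicates 1, 2 and 3), and in the cKO hearts at 1.22, 1.41 and 3.27 FPKM. Every control heart was far above every cKO heart, and the lowest control value was 8.44 times the highest cKO value. Averaged over 3 hearts, the level went from 29.6 ± 1.85 to 1.97 ± 1.14 FPKM (SD), which left 6.64% of the control level. Because the gene is short, these levels rest on few reads. The control values came from 128, 151 and 184 reads, and those of the cKO hearts from 5, 8 and 20 reads, with a single read worth 0.164 to 0.243 FPKM there. The deposited FPKM divides reads by the full gene length, with no correction for fragment size. The fitted log2 fold change was -3.43 (SE 0.24) on the log2(FPKM + 1) scale, which understates changes of low values, and the ratio of the group means gave -3.91.

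A530016L24Rik rested on the most reads of the 4 and varied least among the cKO hearts. Its control values were 17.8, 18.1 and 16.1 FPKM (1058, 1173 and 1210 reads). The cKO hearts held 1.25, 2.14 and 2.25 FPKM (66, 155 and 176 reads). The groups did not overlap, and the lowest control heart was 7.15 times the highest cKO heart. Means of 17.4 ± 1.11 and 1.88 ± 0.54 FPKM (SD, n = 3 each) left 10.8% of the control level, with a log2 fold change of -2.69 (SE 0.15), the decrease at place 3 of all tested genes. The coefficient of variation was 6.40% among control hearts, close to the 6.26% of Gm34302, and 29.0% among cKO hearts.

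Smco1 followed at place 4, or at place 15 without cKO replicate 1. It was read at 12.1, 12.8 and 10.9 FPKM in the control hearts (325, 376 and 372 reads). In the cKO hearts it was read at 0.670, 1.67 and 2.62 FPKM (16, 55 and 93 reads). The control hearts lay close together, whereas the cKO hearts spread over a wide range that still ended below the lowest control heart by a factor of 4.16. The means were 11.9 ± 0.97 and 1.65 ± 0.98 FPKM (SD, n = 3 each), with 13.9% left and a log2 fold change of -2.35 (SE 0.26).

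Rasl10a was the lowest and the most variable of the 4. Control replicates 1, 2 and 3 stood at 5.87, 12.2 and 8.84 FPKM (158, 358 and 302 reads), a coefficient of variation of 35.3%. The cKO hearts stood at 1.09, 0.273 and 1.91 FPKM (26, 9 and 68 reads). The groups did not overlap, though the distance was the smallest of the 4, with the lowest control heart at 3.07 times the highest cKO heart. Means of 8.96 ± 3.16 and 1.09 ± 0.82 FPKM (SD, n = 3 each) left 12.2% of the control level, with a log2 fold change of -2.28 (SE 0.34), at place 5, or at places 9 and 8 without Ctrl replicate 2 and cKO replicate 2. The lowest control value, in replicate 1, was in the heart with the largest sum of 5 atrial markers (2054 FPKM, against 289.6 and 127.8 FPKM in control replicates 2 and 3). In cKO replicates 1, 2 and 3 the sums were 575, 1348 and 1675 FPKM. Among the cKO hearts the largest sum was in the heart with the highest Rasl10a value. Nppa, which the paper also reads as a marker of hypertrophy, supplied 469.2, 1127 and 938.0 FPKM of the cKO sums. Its part of the control sums was 1062, 144.3 and 102.6 FPKM. The sums are therefore no measure of atrial tissue alone. Myl7, the largest of the other markers, gave 71.8, 169.7 and 495.0 FPKM to the cKO sums and 678.6, 98.6 and 18.2 FPKM to the control sums. The part of atrial tissue in the values was not tested.

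**Figure D1:**
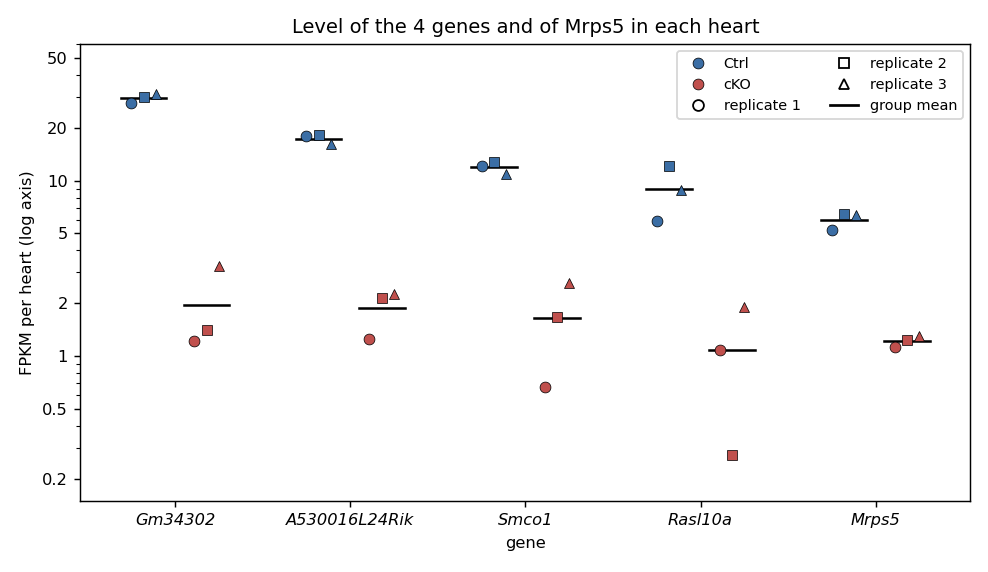
FPKM of Gm34302, A530016L24Rik, Smco1, Rasl10a and Mrps5 (x axis) in each heart on a log y axis, with Ctrl in blue, cKO in red, a symbol shape for each replicate number and a bar for the mean of 3 hearts. For each of the 5 genes every cKO point lies below every Ctrl point, and the cKO hearts spread most for Rasl10a, from 0.273 to 1.91 FPKM.

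In number of calls the background was large. Of the 12944 genes tested with limma, 2205 (17.0%) were lower and 2110 (16.3%) higher in cKO hearts at an adjusted p under 0.05, 33.3% in either direction, and 51.2% of tested genes had groups whose FPKM values did not overlap. As the 4 genes were chosen from this contrast, nothing is read from the lack of overlap of their groups. Scaled to the total without mitochondrially encoded genes, the split was 1621 lower and 2649 higher, so that 62.0% rather than 48.9% of calls were higher, while the median log2 fold change of all tested genes moved from -0.02 to 0.05. The 4 genes kept places 1, 3, 4 and 5 under that scaling.

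Around the 4 genes, the order of decreases was as follows. Efnb3, which codes for ephrin-B3, a membrane ligand of Eph receptors, lay between Gm34302 and A530016L24Rik with a log2 fold change of -2.79 (43.7 ± 9.40 to 5.56 ± 2.04 FPKM). After Rasl10a came Gm15949, a short antisense transcript inside another gene, at -2.14, and then Rpl3l, the muscle-specific relative of ribosomal protein L3, at -2.11 (196.3 ± 10.5 to 46.2 ± 14.4 FPKM). The step from Rasl10a to the next gene was thus much smaller than the step from Gm34302 to the gene after it. Counted by the share of the control mean that was left, among the 11183 tested genes with a control mean of at least 1 FPKM, 9 genes had less left than Gm34302, 12 less than A530016L24Rik, 15 less than Rasl10a and 21 less than Smco1.

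**Figure D2:**
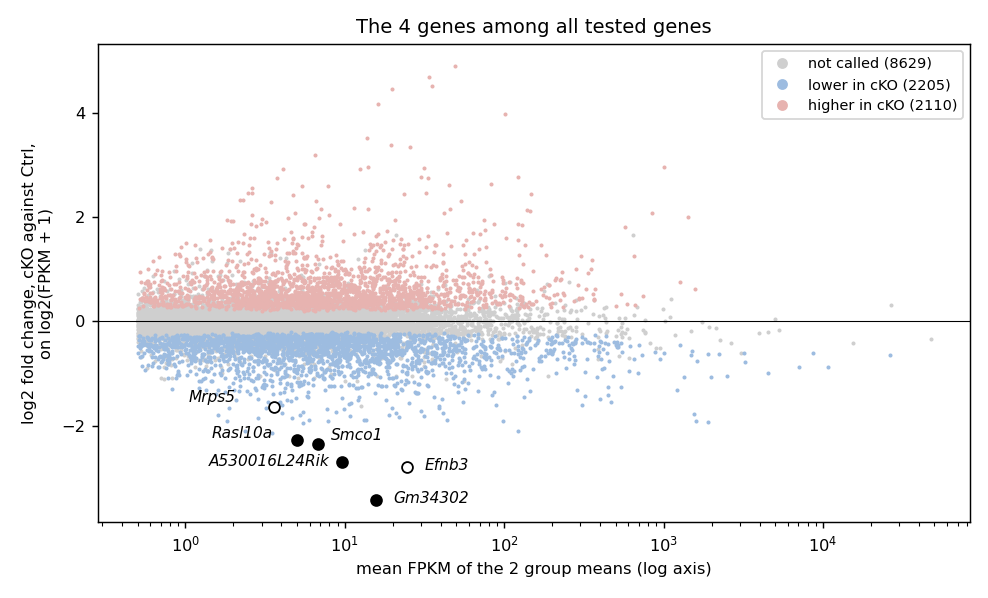
Log2 fold change of cKO against Ctrl on log2(FPKM + 1) (y axis) over the mean FPKM of the group means (log x axis) for the 12944 tested genes, coloured by call, with the 4 genes as filled and Mrps5 and Efnb3 as open circles. The 4 genes were selected for a large decrease. They lie at the lower edge, between -2.28 and -3.43, at moderate expression, and below Mrps5 at -1.65.

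The cKO hearts differed among themselves in how much of each gene was left. Gm34302 was left at 4.11%, 4.76% and 11.1% of the control mean in cKO replicates 1, 2 and 3, with 95% Poisson intervals of 1.33 to 9.58%, 2.06 to 9.39% and 6.75 to 17.1% that cover the counting of the reads alone. These 3 intervals overlap. A530016L24Rik was left at 7.23% (5.59 to 9.19%), 12.3% (10.4 to 14.4%) and 13.0% (11.1 to 15.0%), so that replicate 1 lay below both others by more than counting error. Smco1 was left at 5.62% (3.21 to 9.12%), 14.0% (10.5 to 18.2%) and 22.0% (17.7 to 26.9%), again lowest in replicate 1. Rasl10a departed from this order, with 12.1% (7.93 to 17.8%), 3.04% (1.39 to 5.78%) and 21.4% (16.6 to 27.1%), lowest in replicate 2, the heart with the Xist reads.

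In each of the 4 genes, cKO replicate 3 was the highest of the 3 knockout hearts. Mrps5 itself was left at 18.7%, 20.5% and 21.9% in the same hearts, a much narrower spread with overlapping intervals. The order of replicates 1, 2 and 3 was the same for Mrps5 as for Gm34302, A530016L24Rik and Smco1, although the Mrps5 values differed by no more than counting error. The 4 genes were selected for a large decrease, so a smaller share left than for Mrps5 follows largely from that choice. In cKO replicates 1 and 2 each of the 4 genes was left at a smaller share than Mrps5. In replicate 3 this held for Gm34302, A530016L24Rik and, by less than the counting error, Rasl10a, while Smco1 stood at 22.0% beside 21.9% for Mrps5. Without cKO replicate 2 the log2 fold changes were -3.31 for Gm34302, -2.76 for A530016L24Rik, -2.39 for Smco1 and -1.96 for Rasl10a, the last the smallest value of this gene in any alternative.

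**Figure D3:**
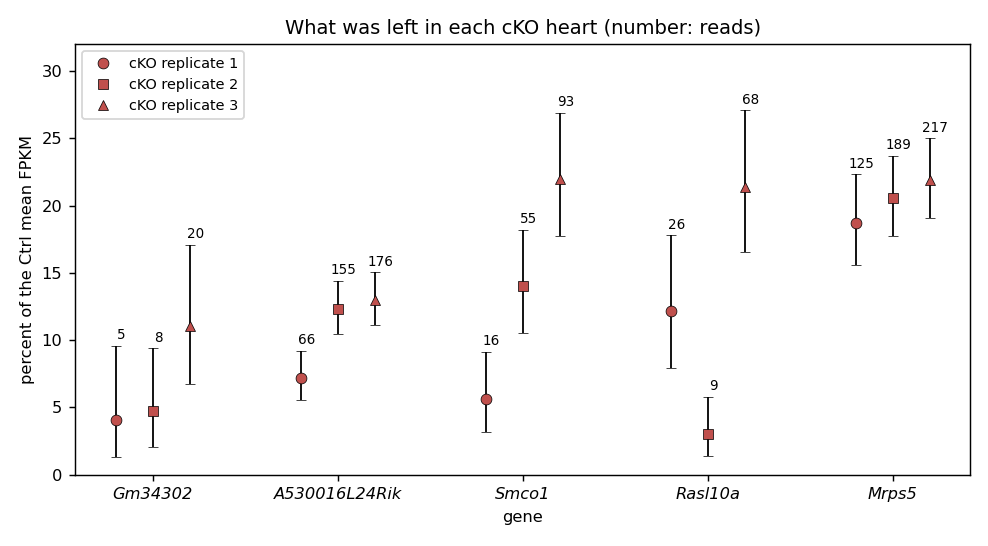
Percent of the control mean FPKM (y axis, from 0) found in each of the 3 cKO hearts for the 4 genes and Mrps5, with 95% Poisson intervals of the read count as bars and the number of reads above each. The 4 genes range from 3.04% to 22.0%, with replicate 3 highest in each, and Mrps5 from 18.7% to 21.9%.

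The cell types that a piece of heart holds bear on how such values are read, since in bulk tissue fewer cells of a type and less RNA per cell cannot be told apart. Of 12 cardiomyocyte markers, 7 were lower and 0 higher in cKO hearts (17.0% and 16.3% of all tested genes, against which the marker counts of the other cell types are also to be read), and their summed level was 27610 to 33530 FPKM in Ctrl and 16300 to 24450 FPKM in cKO. Their median log2 fold change was -0.60, against values of -2.28 to -3.43 for the 4 genes. The most abundant markers included Mb, myoglobin (5985 ± 605 to 3034 ± 307 FPKM, adjusted p = 0.00235), and Actc1, cardiac actin (4750 ± 1128 to 4336 ± 1939 FPKM, adjusted p = 0.66). Endothelial markers were lower in 4 of 6 cases, with sums of 120.4 to 139.9 FPKM in Ctrl and 78.2 to 93.2 FPKM in cKO. The part of cell numbers in the decrease of the 4 genes was not tested.

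Other cell types moved less evenly. Of the 7 fibroblast markers 1 was lower and 2 higher (sums 153.7 to 178.4 and 142.6 to 156.1 FPKM), of the 6 macrophage markers 1 was lower (249.4 to 332.9 and 191.6 to 286.9 FPKM), of the 3 tested smooth muscle markers 1 was higher (16.1 to 29.4 and 28.4 to 54.3 FPKM), and of the 5 atrial and 4 erythroid markers 0 were called. Of the 9 skeletal muscle markers 1 was tested and lower, and their sum was at most 3.11 FPKM in any heart, with Myh1 at 0 in each of the 6 hearts. Tubb3 and Uchl1, the 2 neuronal markers that were tested, were both higher, while Snap25, which defines nerve terminals, stood at a mean of 0.00433 FPKM over the 6 hearts.

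Adipose tissue is of interest for A530016L24Rik because the gene is named for it. Adipocyte markers summed to 190.8 to 230.1 FPKM in Ctrl and 97.3 to 140.1 FPKM in cKO, of which most was Fabp4, a fatty acid binding protein that endothelium also makes (197.5 ± 14.8 to 104.7 ± 12.3 FPKM, adjusted p = 0.00212). Of the other markers tested, Adig was higher and 5 were not called. Adipoq, which codes for the fat cell hormone adiponectin, was at 3.49, 0.557 and 0.569 FPKM in the control hearts and at 0.342, 0.465 and 1.70 FPKM in the cKO hearts. The groups overlapped. The part of fat tissue in the values of A530016L24Rik was not tested.

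The neighbourhood of each gene was then examined, since neighbours were not chosen by their values. Within 100 kb of the 4 genes the table lists 24 other genes. Of these, 9 had no reads in any heart, and 12 were expressed highly enough to be tested. Of the 12, 2 were lower in cKO hearts, 0 were higher and 10 were not called, beside 17.0% lower among all tested genes, and their median log2 fold change was -0.11, against -0.02 over all tested genes. The decreases of Smco1 and Rasl10a stood among tested neighbours that were not called, while those of Gm34302 and A530016L24Rik had a called gene within the window.

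Tmem179, a gene for a transmembrane protein, was the closest called neighbour of any of the 4. It begins 261 bases after the end of A530016L24Rik and lies on the opposite strand, so that the transcripts of the pair run toward each other. It was read at 4.89, 4.44 and 4.63 FPKM in the control hearts and at 1.25, 0.720 and 1.08 FPKM in the cKO hearts. No cKO heart came near a control heart, and 21.9% of the control level was left, a log2 fold change of -1.50 by limma (SE 0.11, adjusted p = 0.000548). Among the cKO hearts, Tmem179 was highest in replicate 1, where A530016L24Rik was lowest. The Tmem179 values rested on only 53, 42 and 68 reads in cKO replicates 1, 2 and 3. No counting intervals were computed for them, so nothing is read from this order. The models share no bases, and the library kit does not mark strand, so reads past the annotated end of one gene into the other could not be told apart.

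On its other side, A530016L24Rik had no tested gene within 100 kb. The nearest was Kif26a, a kinesin family gene 307700 bases away, which was also lower (2.73 ± 0.26 to 1.54 ± 0.19 FPKM, log2 fold change -0.56, adjusted p = 0.00527).

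Gm34302 sat in a sparsely expressed stretch. Gm37279, a transcript annotated 4 bases away, had no reads in any heart, and the same held for Gm24946. The only tested neighbour within 100 kb was Mme, which codes for the peptidase neprilysin, 95081 bases away. Its level was low in every heart, at 0.823, 1.25 and 1.08 FPKM in Ctrl and 0.374, 0.442 and 0.462 FPKM in cKO, and it was lower in cKO hearts (adjusted p = 0.00945, log2 fold change -0.52 with SE 0.10). The next tested gene on the other side, E130311K13Rik, at a distance of 430804 bases, was not called (2.78 ± 0.13 to 2.68 ± 0.65 FPKM, adjusted p = 0.79).

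None of the 9 tested neighbours of Smco1 and Rasl10a was called. Rnf168, a ubiquitin ligase of the DNA damage response that begins 2677 bases after Smco1, was at 4.77 ± 0.22 and 4.45 ± 0.17 FPKM (adjusted p = 0.40, log2 fold change -0.08). Wdr53, a WD-repeat gene on the side before it, was at 3.83 ± 0.40 and 3.24 ± 0.38 FPKM (adjusted p = 0.19, log2 fold change -0.19). Beside Rasl10a, Ap1b1, an adaptor subunit for clathrin-coated vesicles, was at 14.9 ± 2.00 and 15.2 ± 0.84 FPKM (adjusted p = 0.83), and Ewsr1, an RNA-binding protein, at 13.5 ± 1.18 and 14.1 ± 0.55 FPKM (adjusted p = 0.56).

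Rasl10a lies wholly within Gas2l1, a gene for a protein that links actin and microtubules, which runs on the opposite strand over chromosome 11, 5054132 to 5065327. Their exons share 14 bases, 0.991% of those of Rasl10a and 0.23% of those of Gas2l1. Gas2l1 was at 4.73, 4.04 and 4.26 FPKM in the control hearts and at 6.12, 3.33 and 5.03 FPKM in the cKO hearts. The groups overlapped, and the log2 fold change was 0.10 (SE 0.18, adjusted p = 0.70), with a change of sign in 1 of 14 alternative fits. Without cKO replicate 2 the log2 fold change of Gas2l1 was 0.30 (limma adjusted p = 0.081). Gas2l1 was lowest in cKO replicate 2, which is also the lowest heart for Rasl10a. The highest cKO heart was replicate 1 for Gas2l1 and replicate 3 for Rasl10a. In the control hearts the 2 genes stood in the reverse order of each other. Reads from the shared bases cannot be assigned to a strand, and how the counting treated reads that overlap 2 genes is not given in the sources used here.

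**Figure D4:**
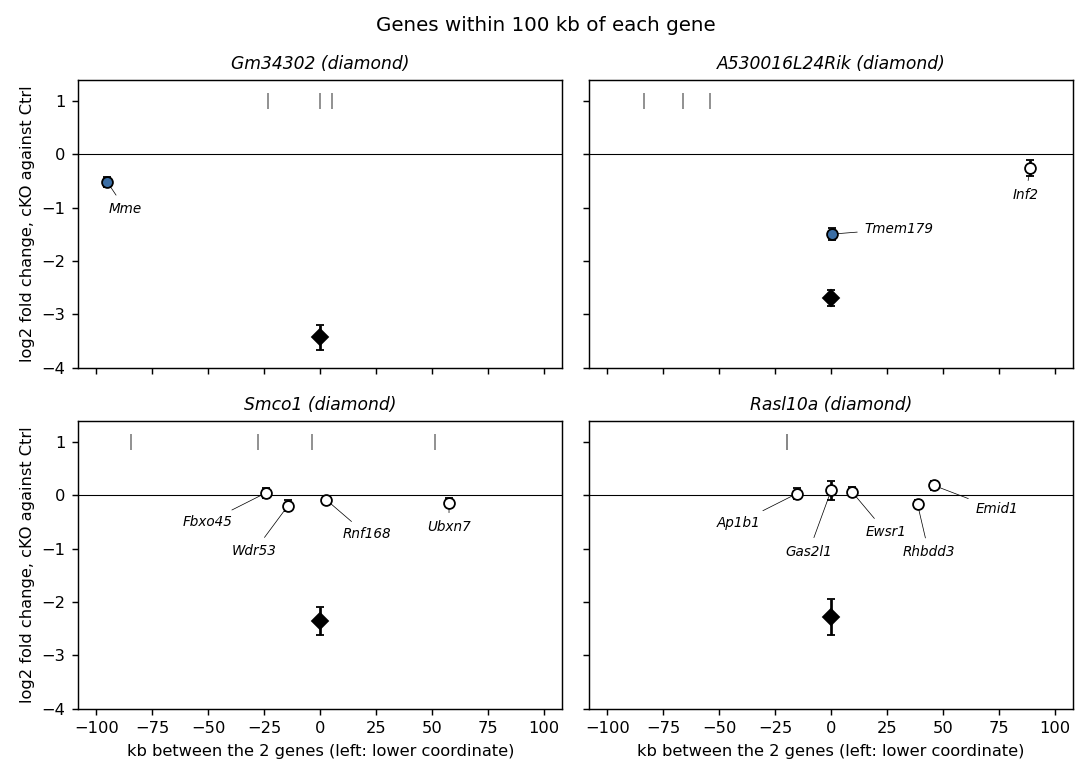
Log2 fold change of cKO against Ctrl with its SE (y axis) for tested genes within 100 kb of each of the 4 genes, over the distance between the genes in kb (x axis), 1 panel per gene, with the gene itself as a black diamond, called neighbours in blue, neighbours that were not called in white and grey ticks at the top for genes that were not tested. Tmem179 at -1.50 and Mme at -0.52 are the 2 called neighbours, and the other 10 lie between -0.26 and 0.19.

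Gm34302 was set beside a list of 28 genes for membrane proteins and small peptides of striated muscle, of which 26 were tested. Of these, 11 were lower, 4 were higher and 11 were not called, with a median log2 fold change of -0.27 (all tested genes -0.02, with 17.0% lower and 16.3% higher). Hrc, a calcium-binding protein inside the sarcoplasmic reticulum, fell from 458.8 ± 23.1 to 152.8 ± 30.7 FPKM (adjusted p = 0.00106, log2 fold change -1.60 with SE 0.15). Tmem65, an inner-membrane protein also found at intercalated discs, fell from 35.1 ± 1.32 to 20.4 ± 1.61 FPKM (adjusted p = 0.00153). The called genes with the opposite sign were Popdc3, Jsrp1, Cav3 and Dysf.

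The pump on which the peptide of Gm34302 acts and the inhibitors it counteracts were looked at by name. Atp2a2, which codes for SERCA2, was read at 2552, 2657 and 2788 FPKM in Ctrl and 1174, 1193 and 1488 FPKM in cKO, with 48.2% left (adjusted p = 0.00164, log2 fold change -1.06 with SE 0.12). Pln, phospholamban, was at 467.2, 493.9 and 433.0 FPKM in Ctrl and 139.3, 172.2 and 208.8 FPKM in cKO, with 37.3% left (adjusted p = 0.00148, log2 fold change -1.43 with SE 0.15). Both were thus lower together with Gm34302, of which 6.64% was left. The cKO hearts stood in the same order for Gm34302, Atp2a2 and Pln. Gm34302 rested there on 5, 8 and 20 reads with overlapping counting intervals, so nothing is read from the shared order. Sln, sarcolipin, which is mainly atrial, ranged from 3.98 to 203.9 FPKM in Ctrl and from 20.9 to 131.4 FPKM in cKO, with overlapping groups (adjusted p = 0.83). Mrln, myoregulin, known from skeletal muscle, was under the limit for testing at 0.363 ± 0.071 and 0.0933 ± 0.081 FPKM, with 8 to 10 reads per Ctrl heart and 0 to 4 per cKO heart. Atp2a2, Sln and Mrln are named for their role and after their values were seen.

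Rasl10a was set beside 35 other genes of RAS-like and RAS small GTPases, of which 29 were tested. Here 3 (10.3%) were lower, 9 (31.0%) higher and 17 not called, beside 17.0% lower and 16.3% higher among all tested genes, with a median log2 fold change of 0.15 beside -0.02. Rras, R-Ras, rose from 36.7 ± 2.76 to 60.8 ± 2.78 FPKM (adjusted p = 0.00185, log2 fold change 0.71 with SE 0.08), Rala from 16.8 ± 0.77 to 23.0 ± 1.07 FPKM (adjusted p = 0.00591), and Rrad, a GTPase that dampens the cardiac calcium channel and the most abundant of the list, from 73.4 ± 17.6 to 123.4 ± 27.7 FPKM (adjusted p = 0.0394). The 3 lower genes were Rerg (1.94 ± 0.098 to 0.967 ± 0.013 FPKM, adjusted p = 0.00229), Rasd2 (1.65 ± 0.47 to 0.580 ± 0.095 FPKM, adjusted p = 0.00871) and Rasl10b, the gene nearest to Rasl10a by name, which is mentioned after its values were seen (41.2 ± 1.64 to 22.7 ± 6.45 FPKM, adjusted p = 0.0166). Rasl10b was lowest in cKO replicate 2, at 15.4 FPKM against 27.7 and 25.0 FPKM, the heart in which Rasl10a was also lowest.

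Of the genes that share the Smco name, which marks a domain layout rather than descent, Smco4 was the only one tested. It fell from 12.3 ± 1.92 to 7.34 ± 1.62 FPKM (adjusted p = 0.0223, log2 fold change -0.69 with SE 0.17). Smco2 had a mean of 0.0224 FPKM over the 6 hearts, and Smco3 had no reads.

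**Figure D5:**
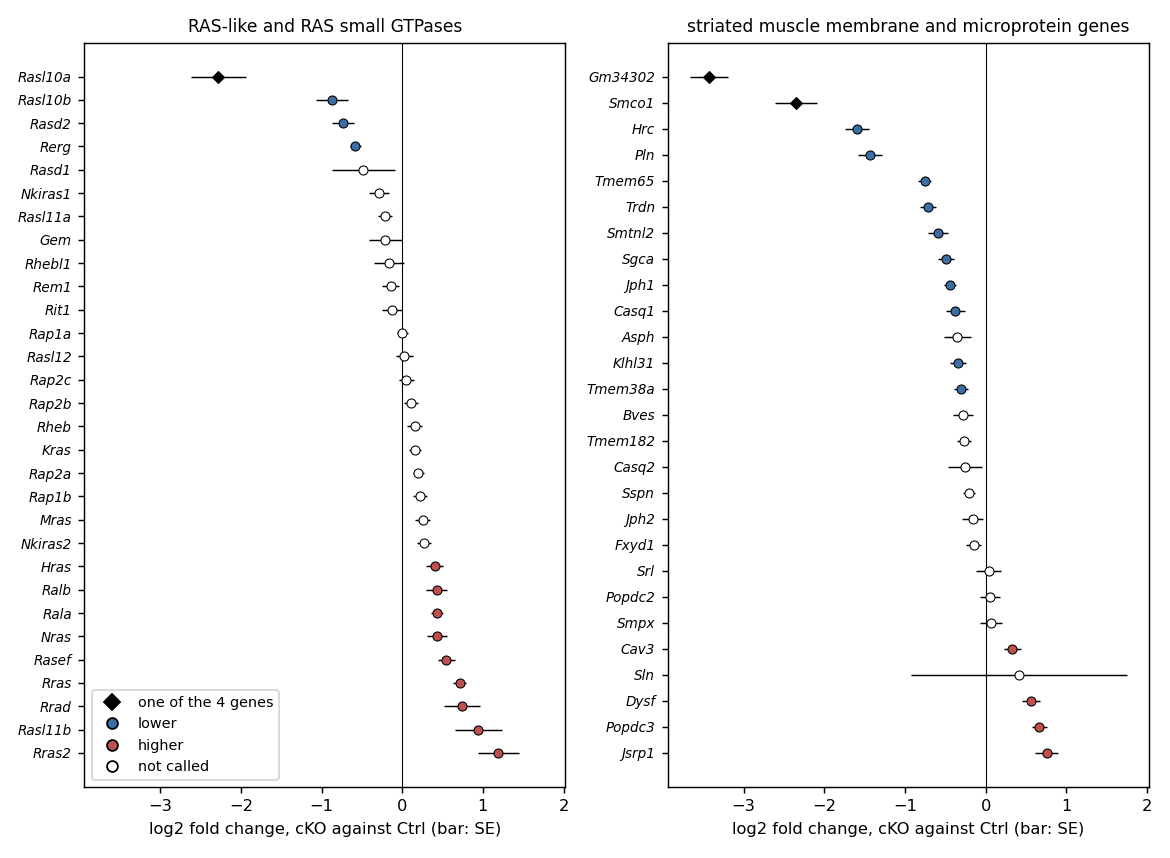
Log2 fold change of cKO against Ctrl with its SE (x axis) for tested genes of the list of RAS-like and RAS small GTPases (left) and of striated muscle membrane and microprotein genes (right, with 1 of 26 not shown), sorted by value, with Rasl10a, Gm34302 and Smco1 as black diamonds and called genes in blue (lower) or red (higher). The list genes range from -0.87 to 1.19 on the left and from -1.60 to 0.76 on the right. All lie above the 3 diamonds, as the selection of those genes for a large decrease largely fixes.

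Gm34302 and A530016L24Rik belong by name to the protein-coding genes whose symbol has the form Gm with a number or ends in Rik. Without the members, 243 such genes were tested. Of these 29 (11.9%) were lower and 36 (14.8%) higher, against 17.2% and 17.1% of the 11174 other protein-coding genes, and the difference in these shares was not tested. The median log2 fold changes were -0.04 and -0.01. The largest decrease among them was that of Gm14327, from 6.29 ± 0.46 to 1.57 ± 0.66 FPKM (adjusted p = 0.00237, log2 fold change -1.54), followed by Gm826 at -1.14, Gm10591 at -1.13, 3425401B19Rik at -1.01 and Gm10762 at -0.94. The largest increases were those of Gm13889, from 3.52 ± 0.90 to 19.4 ± 4.89 FPKM (adjusted p = 0.00106, log2 fold change 2.17), 4930438A08Rik at 1.95, 1110002E22Rik at 1.47, 2200002D01Rik at 1.32 and Gm19410 at 1.30. The decreases in Gm34302 and A530016L24Rik were larger than the largest of these 29, as their selection fixes.

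The genes whose pattern over the 6 hearts was most like that of each member were found by the root-mean-square difference of log2(FPKM + 1), each gene centred on its control mean. Since each member was selected for a large decrease, the genes nearest to it are large decreases too. Nearest to A530016L24Rik was Efnb3, with a difference of 0.205, then Smco1 at 0.294. Nearest to Gm34302 were Efnb3 at 0.494, A530016L24Rik at 0.577 and Smco1 at 0.785, which are larger distances because the decrease of Gm34302 exceeds theirs. Beside A530016L24Rik, Smco1 was closest to Gm15949 at 0.300 and Rpl3l at 0.320. Rasl10a was closest to Gm15949 at 0.275, Rpl3l at 0.299 and Gm24474, a long intergenic RNA, at 0.384.

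The cKO hearts of Rpl3l stood at 41.0, 35.0 and 62.5 FPKM in replicates 1, 2 and 3, lowest in replicate 2 and highest in replicate 3, as was Rasl10a. Those of Gm15949, at 0.469, 0.340 and 1.26 FPKM, rested on 1, 1 and 4 reads, so that no order can be read between replicates 1 and 2. Those of Efnb3, at 3.68, 5.27 and 7.73 FPKM, were lowest in replicate 1 and highest in replicate 3. The same order held for Gm34302, A530016L24Rik and Smco1, though some of these hearts differed by no more than counting error. Gm15949 lies inside Limch1 on the opposite strand, and without strand its reads cannot be told from those of Limch1.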

How the data were processed

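Total RNA from 6 hearts was made by the authors into poly-A selected, paired-end libraries with a kit that does not mark strand (NEBNext Ultra). Reads were aligned with HISAT2 2.0.5 and counted with featureCounts 1.5.0-p3, and the deposited FPKM values were computed by the authors from read count and gene length, with 1 column per heart. The strand setting and the treatment of reads with several alignments are not given in the sources used here. The submitters' processing notes name mm9, but 54495 of 54532 gene identifiers were found in GENCODE M21 (GRCm38), all on the same chromosome and 53585 with identical bounds, so coordinates are given as GRCm38. The authors' own test used DESeq2 on counts (1.16.1 in the submitters' notes, another version in the paper's methods).

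Group and replicate were taken from sample titles, and columns were assigned by name. In 100% of values, the product of FPKM and length came to a whole number of reads (tolerance 0.05 reads), which gave the reads per gene and the 95% exact Poisson intervals, both of which cover counting error only. The library size implied by the FPKM was 0.9133 to 0.9795 times the recovered total in Ctrl hearts and 1.0587 to 1.0622 times in cKO hearts. Compared with scaling by those totals, the deposited FPKM thus stand lower in cKO hearts relative to Ctrl. The 12944 genes that averaged 0.5 FPKM or more were fitted with limma 3.58.1 (R 4.3.3) on log2(FPKM + 1), with an intensity trend, all 6 hearts, no covariates and Benjamini-Hochberg adjustment over all tested genes, with a threshold of 0.05. The fit was also tested on simulated data in which few genes changed, unlike in these hearts, and nothing about the 4 genes is read from it. Alternatives were another pseudocount (0.1 FPKM), other filters, median-of-ratios scaling, scaling without mitochondrially encoded genes, voom on recovered reads, no trend, a replicate block and leaving out each heart.

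The members and lists were chosen with earlier results of these data known, so the members carry no test. Named by rule were the members, Mrps5, overlapping genes, the nearest tested gene on each side and called neighbours within 100 kb. In each family list the rule named the 4 smallest adjusted p-values and the 2 highest means. It also named the 3 most similar genes, the largest decreases and the most abundant markers. Among Gm and Rik names it took the 5 largest changes in each direction. Atp2a2, Sln, Mrln, Rasl10b, Popdc3, Jsrp1, Cav3, Dysf, Smco2, Smco3, Tubb3, Snap25, Myh1, Adig, Adipoq, Xist, Limch1 and untested neighbours were named after their values were seen. Nppa and Myl7 were also named after their values were seen. Protein sequences are not used here. Values of some genes that the rule names are not reported here.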

Additional observations from a re-analysis of the deposited data

How the results depend on the processing

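Each of the 4 genes stayed lower in cKO hearts under all 15 alternatives, which their selection from the same hearts largely fixes. In 3 of these alternatives the log2 fold change moved by more than the replicate SD. All 3 use a smaller offset than 1 FPKM or no offset. A pseudocount of 0.1 FPKM gave -3.98 for Gm34302, -3.18 for A530016L24Rik, -2.96 for Smco1 and -3.17 for Rasl10a. Voom on recovered reads gave -3.90, -3.17, -2.91 and -3.33 in the same order, and the ratio of group means gave -3.91, -3.21, -2.85 and -3.04. On these scales the places among all decreases also changed, to 1, 7, 12 and 8 with the smaller pseudocount and to 6, 15, 19 and 10 with voom, so that Gm34302 leads the table on the main scale but not under voom. Leaving out each heart in turn gave -3.73 to -3.25 for Gm34302, -2.79 to -2.52 for A530016L24Rik, -2.61 to -2.05 for Smco1 and -2.56 to -1.96 for Rasl10a.

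The number of genes lower in cKO hearts ranged from 1434 to 2006 with a heart left out (1434 without Ctrl replicate 2 and 1450 without Ctrl replicate 3), and the number higher from 1400 to 1993 (1400 without Ctrl replicate 3), against 2205 and 2110. Of the tested neighbours, 1 of 10 was called with a minimum mean of 1 FPKM, which removes Mme, 1 of 9 within 50 kb and 17 of 53 within 500 kb. The wider window held 7 lower and 10 higher genes, and its share called was 32.1%, near the 33.3% of all tested genes. Tmem179 was called in 14 of 14 fits and Mme in 13 of 13. The replicate numbers share no animal or litter in the labels, and the correlations of deviations were -0.06, 0.18 and -0.02. With a replicate block the counts were 1982 lower and 1874 higher, and the neighbour count stayed at 2. Few reads limit Gm34302 and Rasl10a most, at 5 to 20 and 9 to 68 reads per cKO heart.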
